A study of Mus musculus with 6 samples.

Results

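The genes described here are 10 AP-1 and immediate early genes, which encode AP-1 subunits and their companions: Fos, Fosb, Fosl2, Jun, Junb, Jund, Egr1, Egr2, Ier2 and Dusp1. They were found by symbol in the deposited count table, with transcript rows summed per symbol, and make up 10 of its 24454 symbols. Of these, 8 had enough reads to be tested, among 9389 genes tested in all. RNA was polyA-enriched from primary peritoneal macrophages, phagocytes of the abdominal cavity, taken from wild-type male C57BL6/J mice of 6 to 8 weeks and kept in culture. The SGA360+LPS cells received SGA360 at 10 µM, a compound that binds the aryl hydrocarbon receptor (AHR), for 1 h and then 10 ng/ml of the bacterial endotoxin LPS for 4 h. The LPS cells received the same dose of LPS for 4 h, and the labels name no vehicle pretreatment for them. The vehicle cells were kept with vehicle for 5 h. Each group has 2 libraries, which the labels do not tie to separate animals or cultures, and the p-values therefore cover the spread of these libraries alone, which may be technical.

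AP-1 is a dimer of basic leucine zipper proteins, in which a Jun family protein (Jun, Junb, Jund) pairs with another Jun or with a Fos family protein (Fos, Fosb, Fosl2 and others). Immediate early genes are switched on within minutes of a stimulus, without new protein synthesis, through MAP kinases that act on serum response factor, its ternary complex partners and CREB. In macrophages LPS triggers such a burst through Toll-like receptor 4. Fos and Egr1 transcripts are short-lived, whereas Junb and Fosl2 can stay raised for longer, and the make-up of the dimer is known to alter which genes AP-1 binds and how strongly it activates them.

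The libraries held 7726973 to 9529817 counts. Levels are given as CPM, counts per 1000000 counts, after TMM scaling, which sets aside the most changed genes. Vehicle replicate 1 stood apart, with 10001 symbols detected where the other 5 libraries had 12282 to 12643, and with 4.92% of its counts on the ribosomal RNA gene Rn45s, where the others had 0.22% to 0.684%. Of 9 macrophage marker genes in the table, 8 had counts, with a summed level of 21755 to 25100 CPM with SGA360+LPS, 22562 to 26227 CPM with LPS and 21403 to 23389 CPM in vehicle, and 2 of the 8 rose and 4 fell with LPS against vehicle. Of all genes tested 19.4% rose and 17.0% fell in that comparison. The ninth marker, Itgam, was at 0 in all libraries and is among the symbols with several transcript rows, which in this table hold few reads.

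The promoters of the 5 genes below are shown because the paired relatives Fos and Fosl2, and Jun and Junb, moved in opposite directions and Egr2 moved with Fos and Jun. Each is the 250 bases before the RefSeq transcript start (GRCm38.p6, the assembly that mm10 names), 5′ to 3′ on the strand of the gene. For Fos that start lies 11 bases upstream of the start in the deposited table. Motifs were searched on both strands, and capitals mark the CRE core TGACG and, in Egr2, also the CArG box, the binding site of serum response factor.
Fos, chr12:85473640-85473889 (plus strand): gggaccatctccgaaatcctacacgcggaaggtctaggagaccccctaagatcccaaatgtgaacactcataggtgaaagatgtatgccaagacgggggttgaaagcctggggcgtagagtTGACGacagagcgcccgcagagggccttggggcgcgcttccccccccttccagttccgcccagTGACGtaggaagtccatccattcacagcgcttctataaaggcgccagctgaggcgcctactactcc
Fosl2, chr5:32136222-32136471 (plus strand): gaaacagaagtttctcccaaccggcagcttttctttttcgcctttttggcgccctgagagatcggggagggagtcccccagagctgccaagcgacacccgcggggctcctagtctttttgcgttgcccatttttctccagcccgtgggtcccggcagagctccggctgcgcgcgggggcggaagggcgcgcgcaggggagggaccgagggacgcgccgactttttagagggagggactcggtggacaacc
Jun, chr4:95052223-95052472 (minus strand): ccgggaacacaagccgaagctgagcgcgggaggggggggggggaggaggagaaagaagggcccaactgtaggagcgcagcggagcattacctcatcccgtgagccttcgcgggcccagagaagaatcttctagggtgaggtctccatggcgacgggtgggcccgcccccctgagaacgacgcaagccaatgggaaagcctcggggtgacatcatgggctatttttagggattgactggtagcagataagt
Junb, chr8:84978749-84978998 (minus strand): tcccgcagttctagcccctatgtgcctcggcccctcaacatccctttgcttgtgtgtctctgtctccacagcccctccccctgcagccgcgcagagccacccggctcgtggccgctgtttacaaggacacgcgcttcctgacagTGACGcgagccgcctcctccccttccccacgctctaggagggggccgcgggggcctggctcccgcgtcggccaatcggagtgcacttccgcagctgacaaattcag
Egr2, chr10:67537619-67537868 (plus strand): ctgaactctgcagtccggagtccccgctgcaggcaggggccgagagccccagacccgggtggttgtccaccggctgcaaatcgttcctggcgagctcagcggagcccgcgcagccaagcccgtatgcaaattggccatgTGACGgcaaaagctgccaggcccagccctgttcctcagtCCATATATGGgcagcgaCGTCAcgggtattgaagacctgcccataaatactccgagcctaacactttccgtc
The core TGACG was found 2 times in the Fos window, 129 and 66 bases upstream, 2 times in that of Egr2 (111 and 55) and 1 time in that of Junb (106), where the number is the distance of the match's first base from the start. The windows of Fosl2 and Jun held none. Of the windows not shown, that of Dusp1 held 3 (191, 143 and 140), that of Fosb 1 (60) and that of Jund none. Of 32851 promoter windows of this length, 17.8% held TGACG. The CArG box of Egr2 began 72 bases upstream, and 1.47% of windows held one. The full CRE TGACGTCA, which contains the core, was found in the Dusp1 window alone among the 8 of the 10 genes with a window (1.55% of all windows). Among these, the Jund window precedes the start in the deposited table (chr8:70697739), while GENCODE starts the gene at 70698949. None of the 8 windows held the AP-1 site TGANTCA, which 6.75% of windows did. Matches had to fit the whole pattern with no mismatch. The CArG box was searched as CCWWWWWWGG and the NF-kB site as GGGRNNYYCC. Here W is A or T, R is A or G, Y is C or T and N is any base. The Jun window holds tgacatca, a variant of the full CRE that these searches do not match. The NF-kB site was found in the windows of Fos, Fosb and Fosl2, and in 7.25% of all windows. These matches are letters in a window and were not tested as binding sites, and no match says only that the letters are not in these bases.

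LPS was set against vehicle to see where these genes stood 4 h into the endotoxin response. The genes split: Junb, Fosl2 and Ier2 were about 2- to 3-fold higher with LPS (folds of 3.22, 2.40 and 2.06), while Fos, Egr1, Jun and Egr2 were lower (folds of 0.271, 0.487, 0.584 and 0.765). Dusp1 had no call. By edgeR's quasi-likelihood test with Benjamini-Hochberg adjustment over all 9389 genes and a threshold of 0.05, 3 of the 8 tested genes rose and 4 fell, where 19.4% and 17.0% of all genes tested did so (36.4% in either direction). The libraries of the groups did not overlap for the same 3 genes on the higher side and 4 on the lower side, as held for 33.1% and 32.7% of all genes tested (65.9% in either direction). Without vehicle replicate 1 there were again 3 rises and 4 falls. The median log2 fold change of the 8 was -0.22, against -0.01 for all genes tested. Since these are bulk samples, fewer cells of a type and less RNA per cell cannot be told apart.

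Fos, the founding Fos family gene and a classical marker of fresh stimulation, was at 6.09 and 6.72 CPM with SGA360+LPS, 4.52 and 6.67 CPM with LPS, and 19.1 and 22.7 CPM in vehicle. All 4 LPS-treated libraries lay below both vehicle libraries, while the SGA360+LPS and LPS libraries overlapped. The fall with LPS against vehicle was -1.89 on the log2 scale (SE 0.24; adjusted p = 0.000155). It is the largest fall of the 8 in this comparison and rests on the lowest counts, 34 and 61 reads with LPS against 171 and 218 in vehicle.

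Fosl2, which encodes the Fos family member Fra-2, went the other way. It was at 204 and 194 CPM with SGA360+LPS, 229 and 247 CPM with LPS, and 86.4 and 112 CPM in vehicle. The vehicle libraries were the low ones, with no overlap, and the rise with LPS was 1.26 (SE 0.11; adjusted p = 1.09e-05). The third Fos family gene, Fosb, was close to absent: 0 and 1 reads with SGA360+LPS, 1 and 2 with LPS, and 0 and 6 in vehicle. It was below the filter and was not tested, and 3 reads would correspond to 0.312 to 0.399 CPM in these libraries.

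Jun, which encodes the best known partner of Fos, had 206 and 200 CPM with SGA360+LPS, 194 and 193 CPM with LPS, and 306 and 357 CPM in vehicle. Both treated groups were low and did not overlap vehicle, and the fall with LPS was -0.78 (SE 0.08; adjusted p = 4.11e-05). The span of Jun overlaps the antisense gene Junos, and no source used here states whether strand was used in counting, so reads of the partners cannot be told apart. Junb, whose protein is a weaker activator than Jun at many sites and can oppose it, showed the reverse. It had 528 and 442 CPM with SGA360+LPS, 608 and 518 CPM with LPS, and 163 and 186 CPM in vehicle, a rise with LPS of 1.69 (SE 0.11; adjusted p = 1.15e-06). The LPS and SGA360+LPS libraries of Junb overlapped one another and stood well above vehicle.

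Jund, the third Jun gene, had 0 counts in all 6 libraries. It is listed as 2 transcripts with the same span and the same exon length of 2879 bases, and of 2596 symbols whose several rows share 1 span, 1683 were at 0 in all libraries. No statement on the expression of Jund is made.

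**Figure D1:**
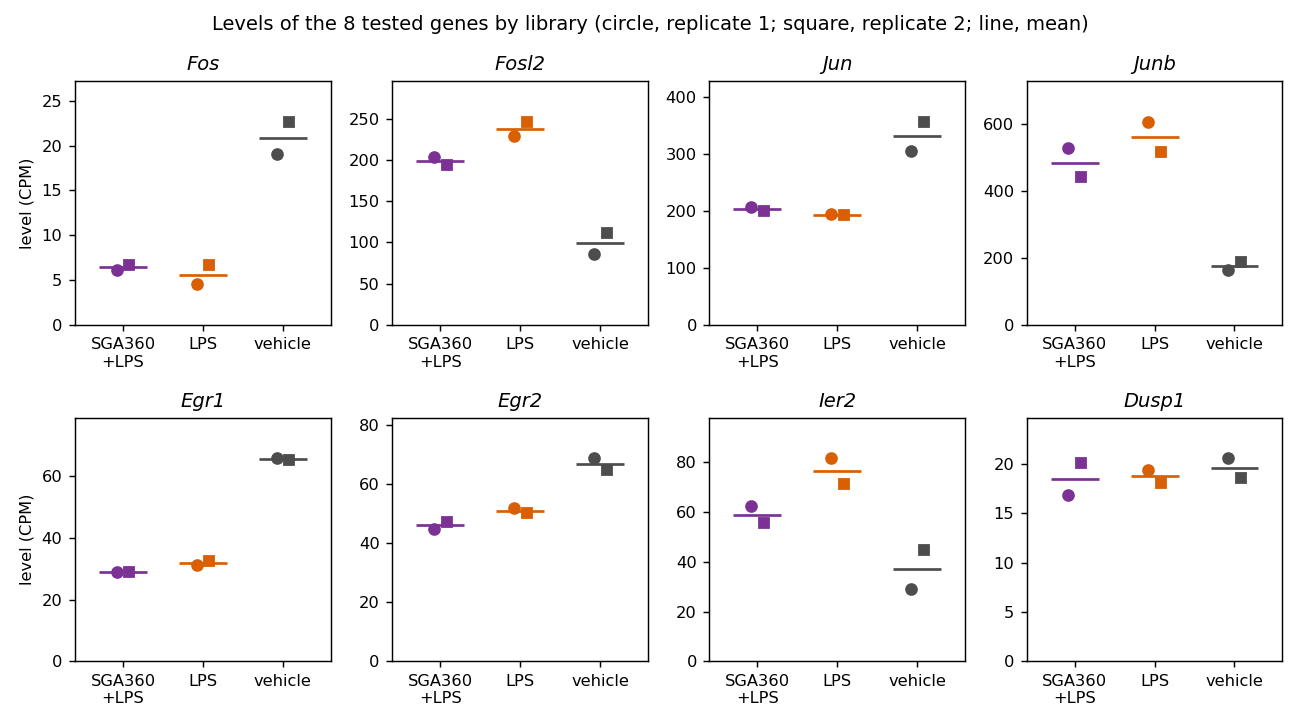
Level in CPM (vertical axes, linear and from 0, each gene on its own scale) of the 8 tested genes in the SGA360+LPS, LPS and vehicle libraries; circles are replicate 1, squares replicate 2 and lines the mean. Fosl2, Junb and Ier2 are lowest in vehicle, Fos, Jun, Egr1 and Egr2 are highest in vehicle, and the Dusp1 libraries all lie between 16.9 and 20.6 CPM.

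Egr1 and Egr2 encode zinc finger factors of the early growth response family, and both were lower with LPS. Egr1 was at 29.0 and 29.1 CPM with SGA360+LPS, 31.3 and 32.5 CPM with LPS, and 65.8 and 65.1 CPM in vehicle. Its replicates were close together and the groups did not overlap, with a fall of -1.04 with LPS (SE 0.11; adjusted p = 4.07e-05). Egr2 was at 45.0 and 47.3 CPM with SGA360+LPS, 51.9 and 50.3 CPM with LPS, and 68.8 and 64.7 CPM in vehicle. Its order was the same, but the fall with LPS was only -0.39 (SE 0.10; adjusted p = 0.0132). The call of Egr2 was lost without LPS replicate 1 (adjusted p = 0.0912) or LPS replicate 2 (0.134), while its log2 fold change stayed between -0.41 and -0.33 with any 1 library left out.

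Ier2, a small nuclear immediate early protein, was at 62.3 and 55.3 CPM with SGA360+LPS, 81.4 and 71.3 CPM with LPS, and 28.9 and 44.9 CPM in vehicle. The 3 groups did not overlap, with LPS the highest, and the rise with LPS was 1.04 (SE 0.18; adjusted p = 0.00116). The vehicle replicates differed more for Ier2 than for any other of the 8 tested genes relative to their mean, and the rise was 0.78 without vehicle replicate 1 and 1.41 without vehicle replicate 2. Dusp1 encodes a phosphatase that switches off p38 and JNK and limits the LPS response. It had 16.9 and 20.1 CPM with SGA360+LPS, 19.4 and 18.0 CPM with LPS, and 20.6 and 18.5 CPM in vehicle. All of its groups overlapped, and LPS against vehicle stood at -0.06 (SE 0.16; adjusted p = 0.803; 95% interval -0.43 to 0.30), which covers folds from 0.744 to 1.23.

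In the mm10 build, Fos (NM_010234) lies at chr12:85473901-85477270 and Fosl2 (NM_008037) at chr5:32136472-32157839, both on the plus strand. Jun (NM_010591) lies at chr4:95049036-95052222, Junb (NM_008416) at chr8:84976909-84978748 and Ier2 (NM_010499) at chr8:84661331-84662852, all on the minus strand. Egr2 (NM_010118) lies at chr10:67537869-67542188 on the plus strand and Dusp1 (NM_013642) at chr17:26505591-26508472 on the minus strand. Positions are those of the deposited table, and strand and gene type are from GENCODE, in which each is protein-coding.

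The comparison of SGA360+LPS with LPS asks what the AHR ligand did under endotoxin. None of the 8 tested genes was called by edgeR's quasi-likelihood test, in which 0.0746% of all genes tested were called (7, all lower). At an unadjusted p under 0.05 there was 1 of the 8, Fosl2, and there were 2 with DESeq2 and 2 with limma-voom, neither of which called any after adjustment. DESeq2 set the adjusted p of 5 of the 8 as missing. There were 3 of the 8 in a fit of these 2 groups alone, Fosl2 (SE 0.07), Ier2 (SE 0.09) and Junb (SE 0.09), where 821 of 9094 genes tested had an unadjusted p under 0.05, against 276 of 9389 in the fit of all groups. The same 3 genes were under it with no filter and without either vehicle replicate, and none was called after adjustment in these fits. For 4 of the 8 genes, Fosl2, Egr1, Egr2 and Ier2, both libraries with SGA360+LPS were lower than both with LPS, and for 1, Jun, both were higher. Of all genes tested 19.6% lay lower and 19.9% higher in this way (39.5% in either direction). An exact permutation test of 2 libraries against 2 cannot give a two-sided p below 0.333.

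The largest of these differences was that of Ier2, at 58.8 ± 4.95 CPM with SGA360+LPS and 76.3 ± 7.16 CPM with LPS (SD, n = 2 each), a log2 fold change of -0.38 (SE 0.17; 95% interval -0.76 to 0.01). Fosl2 averaged 199 ± 6.76 CPM with SGA360+LPS and 238 ± 12.3 CPM with LPS, a difference of -0.26 (SE 0.11; interval -0.50 to -0.02, before adjustment for the number of genes tested). Junb stood at -0.22 (SE 0.11; interval -0.45 to 0.02). This comparison shares its LPS libraries with LPS against vehicle, so the directions of the 2 comparisons are not independent. Egr1 (-0.13, SE 0.12) and Egr2 (-0.15, SE 0.10) had SGA360+LPS means below those of LPS, and Jun (0.07, SE 0.08) and Fos (0.18, SE 0.26) had means above. The adjusted p of each of the 8 was 1.00, and over the alternatives it was never below 0.218. The intervals of Fosl2, Jun, Junb, Egr1 and Egr2 lie within folds of 0.708 and 1.19, that of Ier2 reaches down to 0.590, that of Fos runs from 0.759 to 1.70 and that of Dusp1 from 0.766 to 1.28.

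**Figure D2:**
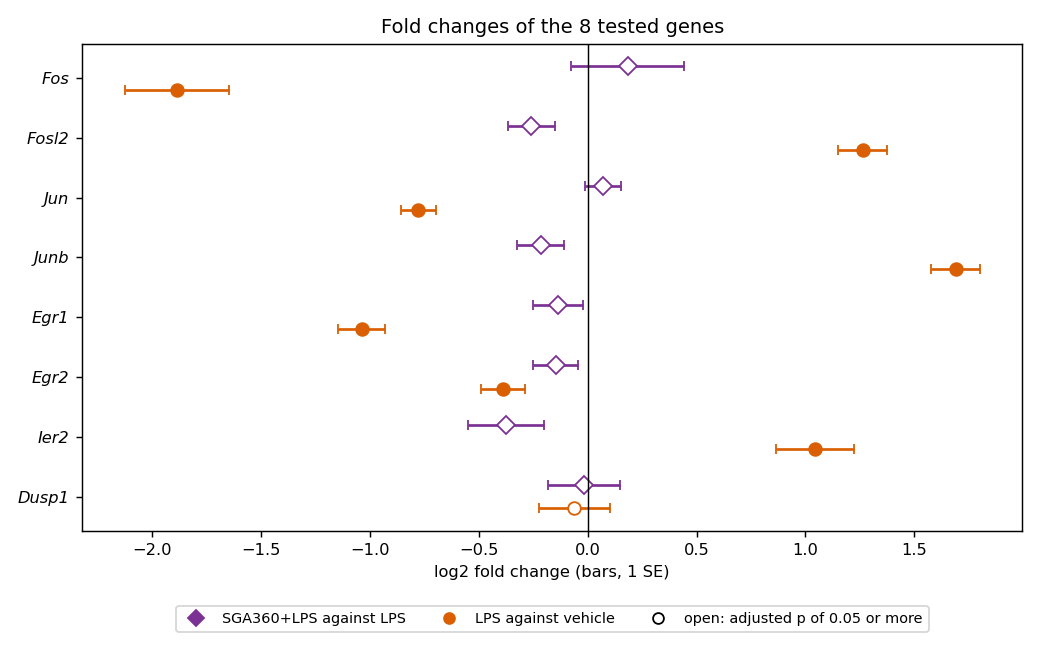
Log2 fold change (horizontal axis; bars are 1 SE) of the 8 tested genes for SGA360+LPS against LPS (diamonds) and for LPS against vehicle (circles), with filled symbols at an adjusted p under 0.05. The circles run from -1.89 for Fos to 1.69 for Junb, while the diamonds, all open, lie between -0.38 and 0.18.

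SGA360+LPS against vehicle shares the vehicle libraries with LPS against vehicle, so its values stand beside those above and are no separate evidence. Of the 8, 3 rose and 4 fell, against 17.9% and 15.2% of all genes tested (33.1% in either direction). Again 3 lay higher and 4 lower without overlap of libraries, against 32.9% and 32.0% of all genes tested (64.9% in either direction). The log2 fold changes were 1.47 for Junb, 1.00 for Fosl2 and 0.67 for Ier2 among the rises. Among the falls they were -1.70 for Fos, -1.17 for Egr1, -0.71 for Jun and -0.53 for Egr2. Ier2 was called at adjusted p = 0.0166, and that call was lost without SGA360+LPS replicate 1 (0.113), as was that of Egr2 (0.0524). Without vehicle replicate 1 the value of Ier2 was 0.41, and without vehicle replicate 2 it was 1.04. Dusp1 stood at -0.08 (SE 0.16; adjusted p = 0.754).

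To compare genes with one another, levels were divided by exon length. Per kilobase, Junb was the most abundant of the 8 with LPS, at 306 ± 34.6 CPM per kb, and Jun came next at 60.7 ± 0.162 CPM per kb (SD, n = 2). In vehicle Jun (104 ± 11.3 CPM per kb) and Junb (94.8 ± 9.09 CPM per kb) did not differ beyond their spread. Below them in vehicle Ier2 (24.2 ± 7.39), Egr2 (22.5 ± 0.98) and Egr1 (21.3 ± 0.156) were followed by Fosl2 (16.9 ± 3.07). The libraries of Ier2 overlapped those of the other 3, so these neighbours were not all separated. Dusp1 (10.04 ± 0.741) and Fos (9.96 ± 1.21) could not be separated. With SGA360+LPS the order was Junb (263 ± 33.0), Jun (63.7 ± 1.28), Ier2 (38.6 ± 3.25), Fosl2 (33.9 ± 1.15), Egr2 (15.5 ± 0.554), and then Dusp1 (9.49 ± 1.15) and Egr1 (9.45 ± 0.0403), which overlapped, with Fos last at 3.05 ± 0.211 CPM per kb. With LPS, Fos was also last, at 2.67 ± 0.723 CPM per kb.

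The make-up of the Fos and Jun transcripts followed from this. Of the summed per-kilobase level of Fos, Fosl2, Jun and Junb, Junb held 73.7% and 70.8% with SGA360+LPS, 76.4% and 72.7% with LPS, and 42.5% and 41.7% in vehicle. Jun held 16.6% and 18.5% with SGA360+LPS, 14.1% and 15.6% with LPS, and 46.1% in both vehicle libraries. The vehicle libraries thus had nearly equal parts of both Jun genes and the treated ones mostly Junb. The ratio of Junb to Jun was 4.44 and 3.82 with SGA360+LPS, 5.44 and 4.65 with LPS, and 0.921 and 0.904 in vehicle. That of Fosl2 to Fos was 12.0 and 10.3 with SGA360+LPS, 18.1 and 13.2 with LPS, and 1.62 and 1.76 in vehicle. Both ratios were highest in the LPS libraries, lower in those with SGA360+LPS and lowest in vehicle, with no overlap. Between SGA360+LPS and LPS, 39.5% of all genes tested also had no overlap. The ratio of Fosl2 to Fos rests on few Fos reads, 48 and 60 with SGA360+LPS and 34 and 61 with LPS. The summed level of the 4 genes was 389 and 339 CPM per kb with SGA360+LPS, 432 and 387 with LPS, and 208 and 243 in vehicle. These shares are a description of transcripts without Jund and Fosb and were not tested.

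**Figure D3:**
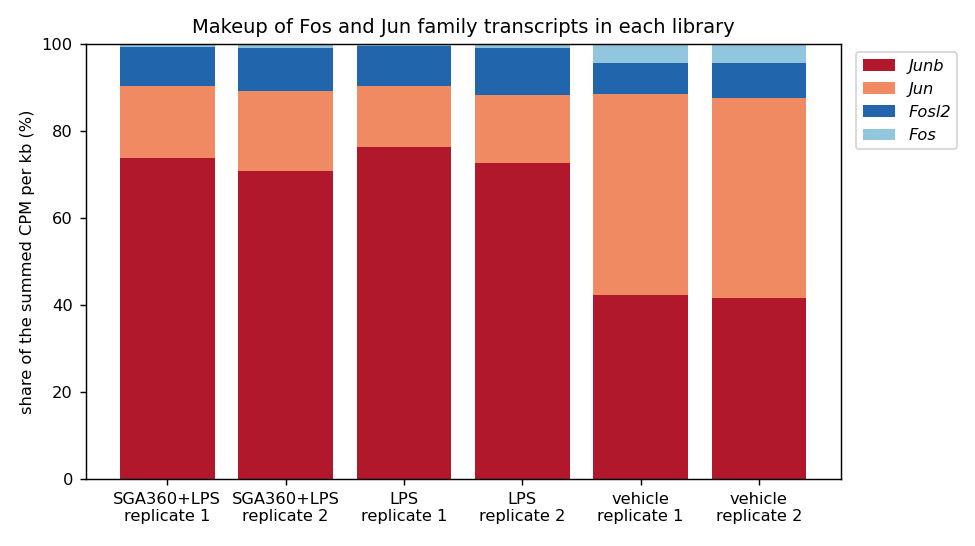
Share in percent (vertical axis) of Junb, Jun, Fosl2 and Fos in their summed CPM per kb of exon, in each of the 6 libraries. Junb takes 70.8% to 76.4% of the SGA360+LPS and LPS libraries and 41.7% to 42.5% of the vehicle libraries, where Fos takes 4.38% and 4.45%.

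Other partners of AP-1 had calls in both directions with LPS, and the 2 falls among 10 tested are near the share of all genes tested. For this list and those below, the shares over all genes tested with LPS against vehicle were 19.4% higher and 17.0% lower. With SGA360+LPS against LPS 0.0746% of all genes tested were called. Of 13 such genes listed, 10 were tested, 4 rose and 2 fell with LPS against vehicle (median log2 fold change 0.60), and none was called with SGA360+LPS against LPS by edgeR, DESeq2 or limma-voom (2, 2 and 1 at an unadjusted p under 0.05). Batf, which encodes a partner of Jun proteins with no activation domain of its own, averaged 87.3 ± 3.85 CPM with SGA360+LPS, 89.8 ± 2.86 CPM with LPS and 16.9 ± 2.22 CPM in vehicle (SD, n = 2), a rise of 2.41 with LPS. Batf2 rose by 2.80 and the small Maf gene Maff by 2.47 (SE 0.72; adjusted p = 0.0225), the last at 0.495 ± 0.406 CPM in vehicle and with 4 transcript rows, which makes its value uncertain. Atf3, a stress-induced repressor that pairs with Jun, was high in all groups, with 483 ± 3.82 CPM with SGA360+LPS, 422 ± 11.8 CPM with LPS and 443 ± 28.7 CPM in vehicle, and had no call (-0.07, adjusted p = 0.466, with LPS against vehicle). Fosl1, which encodes the remaining Fos family protein Fra-1, was low at 4.84 ± 0.513 CPM with SGA360+LPS, 5.22 ± 0.0425 CPM with LPS and 2.69 ± 0.0167 CPM in vehicle, and its 0.95 missed the threshold (adjusted p = 0.0602).

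Of 28 other immediate early genes, 22 were tested. With LPS against vehicle 12 rose and 3 fell, and the median log2 fold change was 0.50. The nuclear receptor gene Nr4a3 rose by 2.93 (SE 0.76; adjusted p = 0.0132) with 0 and 15 reads in the vehicle libraries, and it has several transcript rows, so its value is uncertain. Ier3, a survival gene induced by NF-kB, rose by 2.21, the growth arrest gene Gadd45b by 1.88 and the antiproliferative gene Btg1 by 1.63. Ier3 was the 1 gene of this list called with SGA360+LPS against LPS, at 108 ± 5.69 CPM with SGA360+LPS and 172 ± 2.96 CPM with LPS (-0.67, SE 0.08; adjusted p = 0.0174). At an unadjusted p under 0.05 by edgeR, 4 of the 22 were lower and 1 was higher, where 276 of 9389 genes tested were under it. Nab1, a corepressor of Egr1 and Egr2, and the Krüppel-like factor gene Klf2 had no call in any comparison (0.10 and -0.08 with LPS against vehicle).

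Upstream, 16 of 24 MAP kinase cascade genes were tested, of which 6 rose and 3 fell with LPS against vehicle (median 0.25). The JNK genes Mapk8 and Mapk9 and the p38 alpha gene Mapk14 have several rows with 0 or few counts and were not tested. Mapkapk2, which encodes the p38 target MK2 that stabilises inflammatory transcripts, averaged 2007 ± 19.4 CPM with SGA360+LPS, 2021 ± 6.56 CPM with LPS and 353 ± 10.9 CPM in vehicle, a rise of 2.52. The p38 beta gene Mapk11 rose by 1.06, whereas the kinase genes Map2k6, an activator of p38, and Map3k1 fell by 3.03 and 1.00 on the log2 scale. The fall of Map2k6 (SE 0.49) rests on few reads, 6 and 6 with LPS against 57 and 54 in vehicle. The RSK2 gene Rps6ka3 stood at 0.24 (adjusted p = 0.0562) with LPS against vehicle and had no call. Of 8 genes listed for serum response factor and its partners 5 were tested and 1 fell, where 17.0% of all genes tested fell. It was Elk3 (-0.61, with several rows), a call that DESeq2 did not make. Srf (0.05), Elk1 (-0.12) and Mkl1, a coactivator of serum response factor (0.98, SE 0.58, with several rows), had no call. None of the genes of these lists was called with SGA360+LPS against LPS by edgeR, DESeq2 or limma-voom, and 0 were at an unadjusted p under 0.05 with each.

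All 10 relatives of Dusp1 listed were tested, and 2 rose and 2 fell with LPS against vehicle (median -0.34). Of all genes tested 36.4% were called in either direction, so the calls of this list are near that share. Dusp16, a JNK phosphatase gene with 2 rows, rose by 2.29 and Dusp2 by 1.02 (adjusted p = 0.0294), while Dusp3 and Dusp7 fell by 0.52 and 0.49. Dusp6 and Dusp5, phosphatases of ERK, had no call in any comparison (-0.34 and -0.35 with LPS against vehicle). None of the 10 was called with SGA360+LPS against LPS by edgeR, DESeq2 or limma-voom (1, 0 and 1 at an unadjusted p under 0.05). Of 17 genes known from textbooks for AP-1 sites in their promoters 13 were tested, and 7 rose and 1 fell with LPS (median 0.71). Ptgs2, which encodes cyclooxygenase 2, rose by 5.44, the chemokine gene Ccl2 by 3.32 and the gelatinase gene Mmp9 by 2.69. The urokinase receptor gene Plaur rose to 413 ± 35.5 CPM with LPS, against 146 ± 16.6 CPM in vehicle, while Ccnd1 (-0.04) and Mmp3 (0.44, adjusted p = 0.188) had no call. Ptgs2 was the 1 gene of this list called with SGA360+LPS against LPS, with 132 ± 5.69 CPM with SGA360+LPS and 259 ± 8.03 CPM with LPS (-0.97, SE 0.08; adjusted p = 0.00223). At an unadjusted p under 0.05 by edgeR, 3 of the 13 were lower and 1 was higher.

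**Figure D4:**
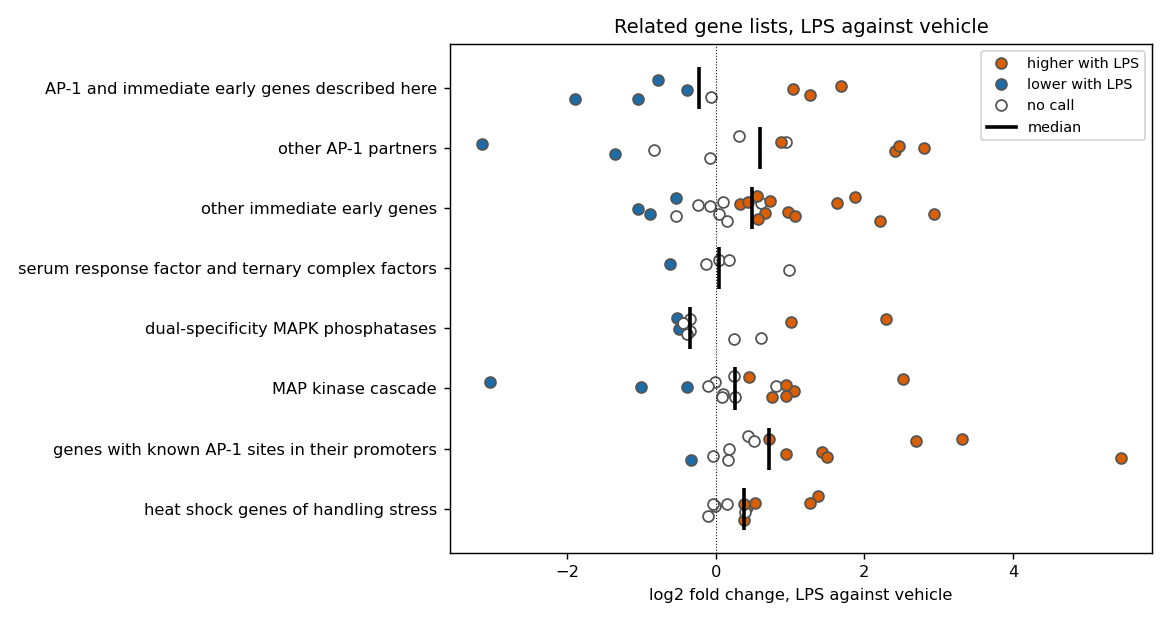
Log2 fold change of LPS against vehicle (horizontal axis) of each tested gene in the 8 tested AP-1 and immediate early genes and in 7 related lists; filled points passed the test, higher or lower, and black bars are medians. The medians run from -0.34 for the MAPK phosphatases to 0.71 for the genes with known AP-1 sites, and every list but the serum response factor and heat shock lists holds both higher and lower genes.

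Heat shock genes respond, as immediate early genes do, to the handling of cells. Of 12 listed 11 were tested, and 6 rose and 0 fell with LPS against vehicle (median 0.39), with the same counts by DESeq2 and limma-voom and 0 lower at an unadjusted p under 0.05 with each. Hspa1a (1.38) and Hspa1b (1.27) were among them, near-identical genes that share reads and are uncertain for that reason, as were Hsp90aa1 (0.53) and Hspa8 (0.42). Hsph1 (0.15) and Hspe1 (-0.01) had no call. With SGA360+LPS against LPS none of the list was called by edgeR, DESeq2 or limma-voom. At an unadjusted p under 0.05 by edgeR, 1 was higher and 0 were lower in that comparison. The parts of handling and of LPS in these values were not tested.

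Mesothelial markers, from the lining cells of the cavity, were lower in the treated groups: 9 of 10 had counts, their summed level was 362 to 383 CPM with SGA360+LPS, 370.5 to 371.4 CPM with LPS and 516 to 546 CPM in vehicle, and 4 of 9 tested fell with LPS against vehicle. Gpm6a was at 0. Of 8 fibroblast markers 6 had counts, with Pdgfrb and Postn at 0, and their summed level was 4737 to 5208 CPM with SGA360+LPS, 4418 to 4725 CPM with LPS and 4680 to 5379 CPM in vehicle. Of 5 fibroblast markers tested 1 fell with LPS against vehicle. Of all genes tested 17.0% fell in that comparison. The part of these cells in the falls of Fos, Egr1, Jun and Egr2 was not tested. Markers of B cells, T cells and neutrophils summed to at most 33.3, 9.16 and 21.0 CPM, and those of mast cells to at most 90.2 CPM, in any library.

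The genes nearest to each of the 8 in pattern were sought over the 6 libraries among 6963 genes with a mean of at least 5 CPM, by distance between log2 CPM centred on each gene's mean. These distances describe 6 libraries that fall into 3 groups. Nearest to Junb was Ccdc71l (distance 0.08), with 178 ± 16.8 CPM with SGA360+LPS, 210.3 ± 21.5 CPM with LPS and 65.7 ± 4.24 CPM in vehicle, and Plaur was the third. Nearest to Fosl2 was Hbegf (0.16), which encodes a ligand of the epidermal growth factor receptor, at 13.2 ± 0.836 CPM with SGA360+LPS, 14.6 ± 0.87 CPM with LPS and 5.90 ± 0.922 CPM in vehicle. Nearest to Jun was Gna12 (0.05), to Fos Nuak1 (0.18), to Egr1 Cep128 (0.07), to Egr2 Vamp4 (0.03), to Ier2 Rdh10 (0.19) and to Dusp1 Rab9 (0.05). Rdh10 shared with Ier2 a wide vehicle pair, at 25.3 ± 9.39 CPM. Among the 8 themselves the smallest distances were those of Fosl2 and Ier2 (0.43) and of Jun and Egr2 (0.45), and the largest was that of Fos and Junb (3.94).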

How the data were processed

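PolyA-enriched RNA of 6 libraries was counted by the authors, who deposited raw read counts per RefSeq transcript row. The submitters' processing notes name mm10, TopHat2 2.0.13 and HTSeq 0.5.4p3. Strand use, annotation version and the handling of reads that fit several transcripts were not stated there. The exon length in bases used per kilobase is that of the deposited table. Rows were summed per symbol. The 5639 symbols with several rows hold 1.87% of all counts, so their values are uncertain. Starts in the table are printed plus 1, which equals the GENCODE start more often (37.5% against 3.27% of 18024 symbols).

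Genes were kept with filterByExpr (minimum count 10) and tested with glmQLFit and glmQLFTest of edgeR 4.0.16 in R 4.3.3 in 1 model of all 6 libraries (TMM, 3 residual degrees of freedom), with Benjamini-Hochberg adjustment over all 9389 genes and a threshold of 0.05. The SE follows from the log2 fold change and the F statistic, and 95% intervals use the test's degrees of freedom. The fits were tested on simulated data. DESeq2 1.42.0, limma-voom (limma 3.58.1), other filters, scaling, a replicate block and fits without each library were tried.

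Groups and replicate numbers come from the labels, which give no pairing. No replicate pair agreed within sampling noise (mean chi-square per gene 4.12 to 43.7). Floors and intervals cover counting error or library spread only, as PCR copies cannot be told from separate molecules without identifiers.

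The 10 genes and all lists were chosen with earlier results of these data known. Named are all 10, of each list up to 4 called genes with the largest change and a mean of at least 1 CPM and up to 2 abundant ones without a call, and the nearest patterns among genes with 1 row and no predicted-gene name. Of these, 2 genes of the lists are not reported here. Chosen for naming once values were known are Junos, Rn45s, Mkl1, Mapk8, Mapk9, Mapk14 and the markers at 0. Promoters are from RefSeq (GRCm38.p6), where 8 of 10 genes matched.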

Additional observations from a re-analysis of the deposited data

How the results depend on the processing

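The counts of 3 rises and 4 falls with LPS against vehicle, and with SGA360+LPS against vehicle, came out within 1.5 times under each alternative but the test against a 2-fold change, which left 1 rise (Junb) and 1 fall (Fos) in both comparisons. With 1 library left out the counts of rises and falls ran from 3 to 3 and from 3 to 4 with LPS against vehicle, and from 2 to 3 and from 3 to 4 with SGA360+LPS against vehicle; the lone library of a group is then assumed to vary like the others. No member was called with SGA360+LPS against LPS under any alternative. Besides the calls named in the results, those of Egr2 with LPS against vehicle (adjusted p = 0.0132) and Ier2 with SGA360+LPS against vehicle (0.0166) do not pass a threshold of 0.01. No called value changed sign. Values with no call did, with 1 library left out. Fos with SGA360+LPS against LPS ran from -0.059 (without LPS replicate 1) to 0.51. Dusp1 ran from -0.15 to 0.10 in that comparison, above 0 without SGA360+LPS replicate 1 (0.10) or LPS replicate 1 (0.033). With LPS against vehicle it ran from -0.12 to 0.030, above 0 without LPS replicate 2 (0.0079) or vehicle replicate 1 (0.030). With SGA360+LPS against vehicle it ran from -0.19 to 0.060, above 0 without SGA360+LPS replicate 1 (0.060) or vehicle replicate 1 (0.016). The cause was not tested. With the replicate number as a block, which the labels do not state to pair the libraries, 3 members rose and 4 fell with LPS against vehicle, with Egr2 at -0.39 (adjusted p = 0.0168), and no call of a member changed in any comparison. Same-numbered libraries deviated together with correlations of 0.16 between SGA360+LPS and LPS, 0.015 between SGA360+LPS and vehicle and -0.0066 between LPS and vehicle.

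Over all genes tested the calls were 3413 with LPS against vehicle, 3107 with SGA360+LPS against vehicle and 7 with SGA360+LPS against LPS. Against a 2-fold change they were 380 higher and 224 lower, 359 and 180, and 0 and 0 in that order. Without vehicle replicate 2 they were 2900 and 2594, 2829 and 2486, and 3 and 13. With LPS against vehicle the lower genes were 907 without LPS replicate 1 and 877 without LPS replicate 2. With SGA360+LPS against vehicle they were 731 without SGA360+LPS replicate 1, where the higher genes were 1100, and 746 without SGA360+LPS replicate 2. At a threshold of 0.01 the lower genes were 975, 891 and 4. With SGA360+LPS against LPS there were 2 higher and 15 lower genes with no filter, 1 and 11 in a fit of these 2 groups alone, 1 and 10 with DESeq2, 2 and 13 without vehicle replicate 1, and 0 to 3 lower without any 1 of their own 4 libraries. The common biological coefficient of variation was 0.054 for LPS and SGA360+LPS alone and 0.0951 with the vehicle pair in the fit.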
